A study of Homo sapiens with 3 samples.

Results

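The matrix-degrading and shedding metalloproteinases and their inhibitors were described in MDA-MB-231, an established line of human breast cancer cells that lacks hormone receptors and HER2 amplification, grown as control cultures. A gene belonged to the set when its symbol in the count files was MMP, ADAM or ADAMTS followed by a number (for MMP also a final letter), or TIMP followed by 1 digit. These symbols gave 66 of the 22824 genes measured, namely 23 MMP, 20 ADAM, 19 ADAMTS and 4 TIMP genes. All 3 libraries are control siRNA (n = 3, labelled biological replicates), from cells transfected with 50 nM siRNA 2 times, 24 h apart, and processed 48 h after the second transfection. No other arm is analysed here, so the values describe a baseline and its spread between cultures and no treatment effect. The labels do not say how the cultures were separated, so the p-values measure only the spread between these libraries.

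MMPs (matrix metalloproteinases) are zinc proteases that cut collagens and other matrix proteins, and most are secreted as inactive proenzymes. ADAMs are membrane-anchored relatives, several of which release growth factors, cytokine precursors and receptors from the cell surface, a step called shedding. ADAMTS proteins are secreted, carry thrombospondin repeats and cut proteoglycans, procollagens or other matrix proteins, while TIMPs bind the active site of the metalloproteinases and block it. In breast tumours many of the secreted MMPs are made by fibroblasts and leukocytes of the stroma, cells that a pure culture of tumour cells lacks.

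The gene counts of replicate 1 totalled 68664126, those of replicate 2 totalled 84880547 and those of replicate 3 totalled 54512366. Fibroblast, endothelial and leukocyte marker lists summed to 8.74 ± 0.710, 2.34 ± 0.156 and 6.19 ± 0.313 TPM (SD, n = 3). In these lists 2 of 8, 2 of 6 and 2 of 6 genes reached 1 CPM in each library (COL1A1 and PDGFRB, PECAM1 and KDR, CD14 and CSF1R), while the defining markers DCN, ERG and ITGAM had no counts. The 8 markers of the line itself summed to 5377 ± 175 TPM, most of it from VIM at 4571 ± 159.9 TPM. AXL, CD44, ERBB2 and EPCAM were at 589 ± 41.8, 169.6 ± 3.45, 28.9 ± 1.67 and 17.7 ± 1.23 TPM. CDH1, ESR1 and PGR did not reach 1 CPM in each library, at 0.607 ± 0.230, 0.0120 ± 0.00477 and 0.0602 ± 0.00149 TPM. TPM is the count per transcript length, scaled to one total in every library, and is used here to compare genes. CPM divides the count by the scaled library total without regard to length, and is used to compare libraries. For a gene without counts, the limit set by 3 read pairs (6 counts) was 0.0877 CPM in replicate 1, 0.0708 CPM in replicate 2 and 0.110 CPM in replicate 3, for counting error only.

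Of the 66 genes, 31 reached 1 CPM in each library (47.0%), 24 had between 1 and 99 counts over the 3 libraries together, and 11 had no count. Over all genes the share that reached 1 CPM in each library was 55.6% (12681 of 22824). The median member stood at 0.240 TPM, the median of all genes at 3.61 TPM, and 13 members lay above the median detected gene (23.2 TPM). By family, all 4 TIMP genes, 10 of 19 ADAMTS, 9 of 20 ADAM and 8 of 23 MMP genes reached 1 CPM in each library. Abundance was concentrated in a few genes, since the 5 highest members, TIMP3, TIMP1, MMP14, TIMP2 and ADAM9, held 78.9% ± 0.459 of the summed TPM of the set.

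**Figure D1:**
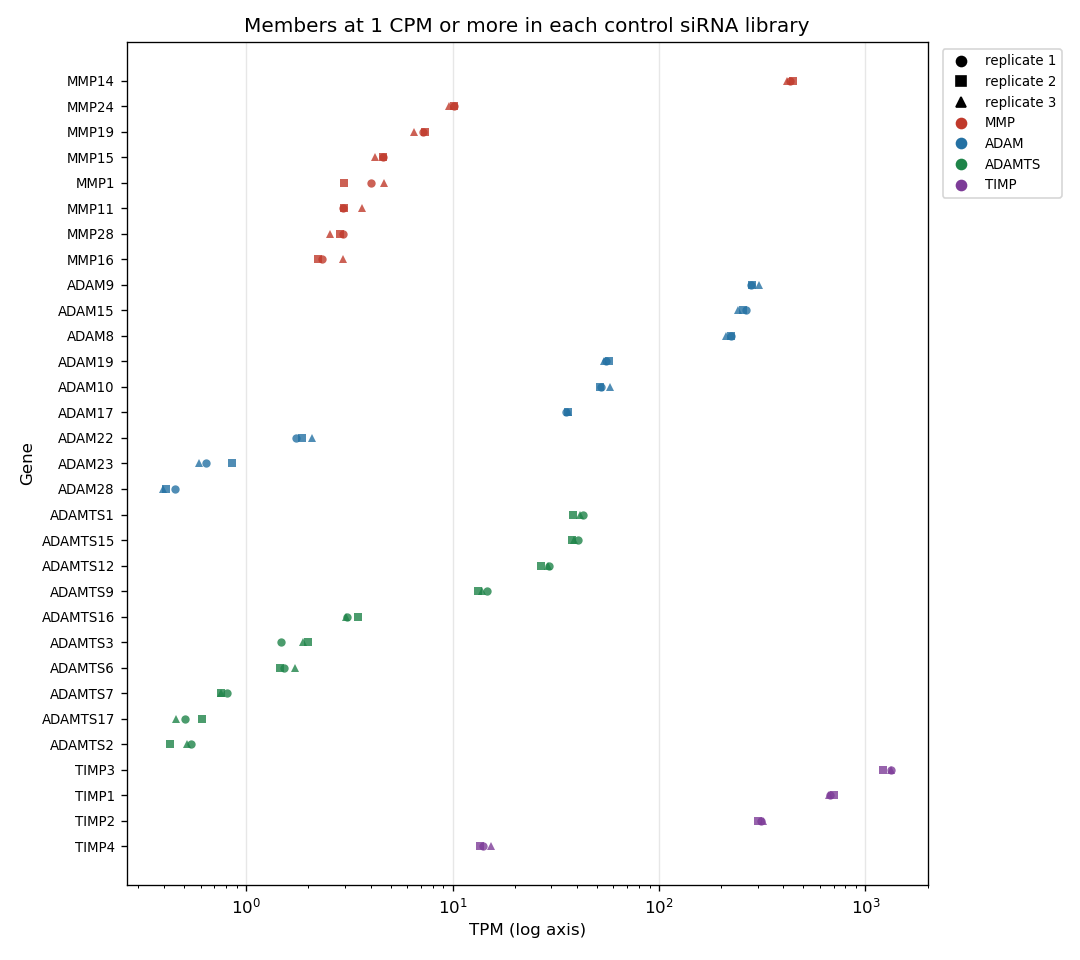
TPM (log axis) of the 31 members that reached 1 CPM in each library, 1 symbol per control siRNA library, coloured by family and ordered by level within it. MMP14 stands at 417 to 443 TPM, apart from the 7 MMP genes below it, which lie between 2.22 and 10.2 TPM.

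With 1 record counted per gene, the inhibitors were the most abundant class in summed TPM. TIMP3, a matrix-bound inhibitor that also acts on ADAM17 and on ADAMTS proteases, was at 1324, 1222 and 1336 TPM in replicates 1, 2 and 3. TIMP1, a soluble inhibitor that is weak against MMP14, was at 676, 700.3 and 665 TPM. TIMP2, which blocks MMP14 and also tethers the proenzyme of MMP2 to it, was at 312, 301 and 320.5 TPM. TIMP4, whose expression in the body is restricted, was far lower at 14.0, 13.5 and 15.4 TPM. Ranges over the libraries did not overlap between TIMP3, TIMP1, TIMP2 and TIMP4 in TPM, so their order was the same in each culture. In CPM TIMP2 (475, 463 and 483) exceeded TIMP1 (252, 263 and 245). The size of the gap between TIMP3 and TIMP1 rests on length, with a ratio of 1.90 ± 0.140 in TPM and 9.82 ± 0.725 in CPM. TIMP1, TIMP3 and TIMP4 lie inside the synapsin genes SYN1, SYN3 and SYN2 on the opposite strand, per GENCODE 29. TIMP1 and TIMP3 share no exon base with them, and TIMP4 shares 170 bases with SYN2. The synapsin genes had no more than 0.456 CPM in any library. TIMP2 shares 198 bases of exon with CEP295NL on the same strand and 367 with an antisense gene on the opposite strand. How many of the TIMP2 reads come from these genes was not tested.

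MMP14, a membrane-anchored collagenase that also activates the proenzyme of MMP2, was at 429.8, 443 and 417 TPM and made up 92.5% ± 0.352 of all MMP TPM. The other membrane-type MMPs were much lower. MMP24 was at 10.2, 10.2 and 9.64 TPM, MMP15 at 4.60, 4.60 and 4.18 TPM, and MMP16 at 2.32, 2.22 and 2.93 TPM. Both members with a lipid (GPI) anchor stayed under 1 CPM, MMP25 with 39, 18 and 28 counts and MMP17 with 2, 7 and 5. MMP25 shares 1454 bases of exon with MMP25-AS1 on the opposite strand. MMP24 shares 799 bases of exon with MMP24OS on the opposite strand, and since strand-specific counting is not stated, reads of such pairs cannot be told apart.

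The secreted MMPs were low or without counts. Among collagenases, MMP1, which cuts fibrillar collagen, was at 4.03, 2.98 and 4.63 TPM (227, 210 and 206 counts), MMP13 had 14, 18 and 9 counts, and MMP8, the neutrophil collagenase, had 6, 10 and 11. Of the gelatinases, which cut denatured collagen and basement membrane, MMP2 had 7, 6 and 13 counts and MMP9 had 2, 3 and 3. MMP2, the proenzyme partner of MMP14 and TIMP2, was thus at 0.133 ± 0.0877 TPM.

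Among the genes listed as stromelysins, MMP11 was at 2.95, 2.97 and 3.63 TPM and MMP10 had 7, 3 and 11 counts. MMP11 is activated inside the cell by furin. It shares 218 bases of exon with CHCHD10 on the opposite strand, which was at 9.88, 8.16 and 8.56 CPM. MMP11 itself was at 2.82, 2.87 and 3.43 CPM, and how many of its reads come from CHCHD10 was not tested.

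MMP19 was at 7.17, 7.37 and 6.47 TPM and MMP28, also called epilysin, at 2.94, 2.83 and 2.55 TPM. MMP19 shares 814 bases of exon with TMEM198B on the opposite strand, which had 5.55, 5.67 and 5.95 CPM, near the 6.68, 6.92 and 5.95 CPM of MMP19. MMP21 had 0, 3 and 1 counts and MMP23B had 6, 9 and 0; MMP23B has a near-identical copy, MMP23A, so its counts are uncertain. The 6 MMP genes without a count in any library were MMP3, MMP7, MMP12 (macrophage elastase), MMP20 (the enamel protease), MMP26 and MMP27.

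A run of 9 MMP genes are neighbours on chromosome 11 in the order MMP7, MMP20, MMP27, MMP8, MMP10, MMP1, MMP3, MMP12 and MMP13, with no other protein-coding gene between them in the RefSeq table. Within this run of 9, MMP1 alone reached 1 CPM in each library. MMP8, MMP10 and MMP13 had from 3 to 18 counts per library and the other 5 had none. Of the direct neighbours of MMP1, MMP10 had 7, 3 and 11 counts and MMP3 had none. MMP1 lies inside the transcribed pseudogene WTAPP1 on the opposite strand, which had 22, 19 and 8 counts.

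**Figure D2:**
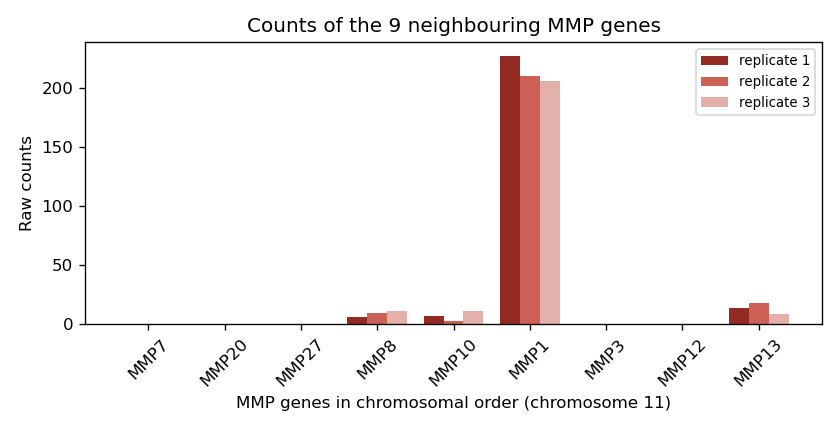
Raw counts (not scaled for library size) of the 9 neighbouring MMP genes of chromosome 11 in chromosomal order, 1 bar per control siRNA library. MMP1 has 206 to 227 counts, and no neighbour exceeds 18.

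Summed over the genes, TIMP transcripts stood at 2326, 2236 and 2336 TPM and MMP transcripts at 465, 477 and 452 TPM. The TIMP to MMP ratio was thus 4.95 ± 0.244 (SD, n = 3), lowest at 4.69 in replicate 2 and highest at 5.17 in replicate 3. A paired exact test over 3 libraries cannot give a two-sided p under 0.25, so none is given. The ratio depended on the leading genes, at 2.16 without TIMP3 and 65.9 without MMP14. Against MMP14 alone, TIMP3 stood at a ratio of 3.01 ± 0.231, TIMP1 at 1.58 ± 0.0110 and TIMP2 at 0.724 ± 0.0453. Without division by length the order of TIMP1 and MMP14 turned, with MMP14 over TIMP1 at 2.64 ± 0.0183 in CPM. These are ratios of transcripts and say nothing of the proteins. ADAM genes summed to 909 ± 2.29 TPM and ADAMTS genes to 131 ± 5.16 TPM.

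**Figure D3:**
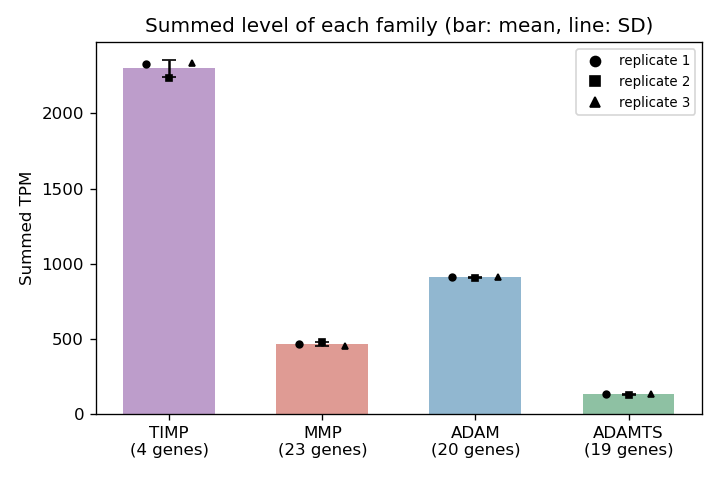
Summed TPM of the TIMP, MMP, ADAM and ADAMTS genes. Bars are means, lines are SD and symbols are the 3 control siRNA libraries; the 4 TIMP genes sum to 2236 to 2336 TPM and the 23 MMP genes to 452 to 477 TPM.

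Among the ADAM genes, 3 with a catalytic site held 83.6% ± 0.324 of the family's TPM. ADAM9 was at 278, 281 and 305 TPM, ADAM15, whose protein also carries an integrin-binding motif, at 264, 255 and 240.4 TPM, and ADAM8 at 223, 222 and 211 TPM. The range of ADAM9 did not overlap that of ADAM15, nor did the range of ADAM15 overlap that of ADAM8. This order depended on the transcripts chosen. With the longest transcript of each gene ADAM15 was at 206 TPM and ADAM8 at 272 TPM, and with records summed ADAM15 was at 781 TPM and ADAM9 at 574 TPM. ADAM15 shares 306 bases of exon with DCST1 on the same strand, which was at 0.950, 1.09 and 1.02 CPM. The range of ADAM9 overlapped that of TIMP2, although ADAM9 was the lower within each library. ADAM19 followed at 55.4, 57.3 and 53.9 TPM.

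The sheddases with the best known substrates were lower in TPM. ADAM10, which cuts Notch receptors and cadherins, was at 52.3, 51.6 and 58.1 TPM, overlapping ADAM19. ADAM17, which releases TNF and several EGF receptor ligands, was at 35.2, 36.1 and 36.1 TPM. The place of ADAM10 rests on a transcript of 11431 bases in GENCODE 29. In CPM ADAM9 exceeded ADAM10 by a ratio of 1.79 ± 0.0323, against 5.34 ± 0.0961 in TPM, and ADAM10 exceeded ADAM17 by 3.93 ± 0.236 in CPM against 1.51 ± 0.0908 in TPM. ADAM17 shares 1323 bases of exon with IAH1 on the opposite strand, which was at 24.2, 24.7 and 22.5 CPM beside 64.6, 66.8 and 65.4 CPM for ADAM17.

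The remaining catalytic ADAMs were low. ADAM28 reached 1 CPM in each library, at 0.451, 0.409 and 0.395 TPM. ADAM12 had 18, 32 and 7, and ADAM20 and ADAM21, known from testis, had 3 to 9 and 6 to 16. ADAM33 had 4, 0 and 0 counts and ADAM30 none. Of the 8 ADAMs without a catalytic site, ADAM22, a receptor for LGI proteins at synapses, was at 1.74, 1.86 and 2.07 TPM and ADAM23 at 0.641, 0.849 and 0.587 TPM. ADAM11 had 29 to 33 counts, ADAM32 had 13 to 22, and ADAM29 had 3 counts in replicate 2 alone. The testis or epididymis genes ADAM2, ADAM7 and ADAM18 had none.

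Of the ADAMTS genes, 4 held 93.3% ± 0.539 of the TPM. ADAMTS1, a proteoglycanase, was at 42.7, 38.2 and 41.6 TPM, and ADAMTS15, another one, at 40.5, 37.7 and 38.7 TPM; the ranges overlap, with ADAMTS1 the higher within each library. ADAMTS12, which with ADAMTS7 cuts the cartilage protein COMP, was at 28.4 ± 1.28 TPM (107, 99.7 and 105 CPM). ADAMTS9 was at 14.6, 13.3 and 13.9 TPM and overlapped TIMP4. The classical aggrecanases had few counts, ADAMTS4 with 4, 10 and 0 counts and ADAMTS5 with 25, 30 and 23.

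ADAMTS5 neighbours ADAMTS1 on chromosome 21, and ADAMTS8 neighbours ADAMTS15 on chromosome 11. Both pairs were unequal, with 4877 to 7094 counts for ADAMTS1 against 23 to 30 for ADAMTS5, and 4962 to 7646 for ADAMTS15 against 5 to 15 for ADAMTS8. Lower still in level than the leading 4 were ADAMTS16 (3.08, 3.47 and 3.03 TPM), the procollagen proteinase ADAMTS3 (1.48, 1.98 and 1.89 TPM) and ADAMTS6 (1.52, 1.45 and 1.72 TPM). ADAMTS7, ADAMTS17 and ADAMTS2, also a procollagen proteinase, were at 0.771 ± 0.0332, 0.524 ± 0.0774 and 0.494 ± 0.0596 TPM. ADAMTS13, which cuts von Willebrand factor, had 30, 32 and 7 counts, ADAMTS14 had 14, 8 and 14, and ADAMTS10, ADAMTS18 and ADAMTS19 had at most 4 in any library. ADAMTS20 had none.

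Along the order of the 31 genes, 14 of 30 neighbouring pairs had overlapping ranges over the libraries, and 4 of these 14 kept 1 order within each library. The order was sharper at the top, where 6 of the first 7 steps did not overlap.

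CpG content near the start was set beside the level of each gene. RefSeq promoter windows (GRCh38.p14, 250 bases before to 50 after the start) were matched for 39 of the 66 members. Of 20 members that reached 1 CPM in each library, 16 had a CpG observed-to-expected ratio of 0.6 or more (80.0%, median 0.786), against 7 of 19 other members (36.8%, median 0.360). Among all other genes with a window the shares were 82.8% of 9321 detected and 33.9% of 5311 undetected, so the members' shares lay near those of other genes. The detected members under 0.6 were MMP14 (0.442), TIMP1 (0.518), TIMP4 (0.392) and ADAMTS6 (0.444). The 7 members at 0.6 or more that did not reach 1 CPM were ADAM12, ADAM30, ADAMTS10, ADAMTS14, ADAMTS18, ADAMTS19 and ADAMTS20.

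**Figure D4:**
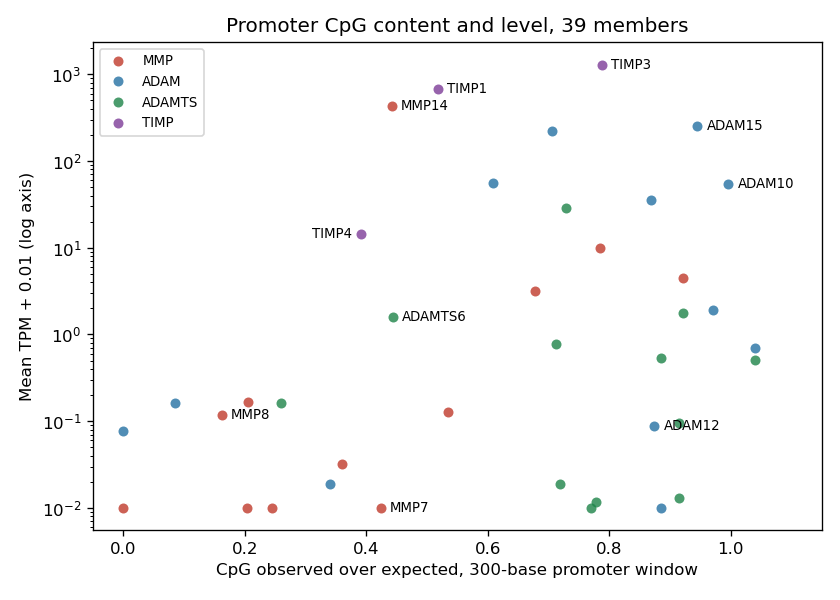
Mean TPM plus 0.01 (log axis) against the CpG observed-to-expected ratio of the 300-base promoter window, 1 point per member with a window (39). Points at 0.01 have no counts; MMP14 (429.9 TPM) and TIMP1 (680.5 TPM) have ratios of 0.442 and 0.518, and ADAM12 (0.0770 TPM) has 0.874.

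The last 150 bases before the start of 5 members are shown to let this range be read, with each CpG in capitals. They hold 13 CpG in TIMP3 (chr22:32801555-32801704, plus strand), 20 in ADAM15 (chr1:155051166-155051315, plus strand), 10 in ADAM10 (chr15:58749708-58749857, minus strand), 4 in MMP14 (chr14:22836435-22836584, plus strand) and 0 in MMP8 (chr11:102724955-102725104, minus strand). TIMP3 and ADAM15 are rich in CpG, MMP14 opens with a run of thymines and has few CpG, and MMP8 is AT-rich.
TIMP3: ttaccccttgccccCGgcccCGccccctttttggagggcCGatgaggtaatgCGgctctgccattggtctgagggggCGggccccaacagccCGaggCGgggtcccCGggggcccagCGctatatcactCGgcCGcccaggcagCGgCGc
ADAM15: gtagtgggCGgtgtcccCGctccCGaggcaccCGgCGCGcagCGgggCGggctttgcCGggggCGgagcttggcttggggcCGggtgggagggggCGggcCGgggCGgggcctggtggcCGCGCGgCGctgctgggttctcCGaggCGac
ADAM10: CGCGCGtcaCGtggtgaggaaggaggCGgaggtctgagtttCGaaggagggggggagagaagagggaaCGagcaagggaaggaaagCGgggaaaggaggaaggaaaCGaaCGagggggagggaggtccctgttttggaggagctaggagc
MMP14: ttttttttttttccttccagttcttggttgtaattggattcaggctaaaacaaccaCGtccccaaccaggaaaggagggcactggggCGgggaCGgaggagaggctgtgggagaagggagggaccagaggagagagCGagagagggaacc
MMP8: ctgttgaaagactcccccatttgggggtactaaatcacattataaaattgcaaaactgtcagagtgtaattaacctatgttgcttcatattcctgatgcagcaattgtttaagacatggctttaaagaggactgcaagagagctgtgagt

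AP-1, a dimer of FOS and JUN proteins, is a known regulator of several MMP promoters. Its consensus is TGAGTCA or TGACTCA, and the search used the wider pattern TGANTCA, with any base at N. This pattern, which reads the same on both strands, was found in the windows of 4 of 39 members (10.3%). It was found in 6.09% of the 14632 windows of other measured genes and 7.71% of all 35116 windows in the table. Shares for the narrower consensus were not computed. The 27 members without a window, among them MMP1, MMP3, MMP9, MMP12 and MMP13, were not searched. The 4 members with a match are shown with the match in capitals and 25 bases on each side. It starts 84 bases before the start of ADAMTS12 (chr5:33892043-33892099), 67 before that of MMP10 (chr11:102780664-102780720), 67 before that of MMP7 (chr11:102530783-102530839) and 112 before that of MMP20 (chr11:102625413-102625469), all on the minus strand. Of these genes ADAMTS12 was detected, MMP10 had 21 counts in all, and MMP7 and MMP20 had none. MMP7 holds the consensus TGAGTCA, while ADAMTS12, MMP10 and MMP20 hold TGAATCA, which matches the wider pattern alone. A match describes these letters and is not a site shown to be used.
ADAMTS12: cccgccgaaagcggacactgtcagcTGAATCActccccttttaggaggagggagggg
MMP10: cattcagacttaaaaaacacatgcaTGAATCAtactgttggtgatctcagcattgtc
MMP7: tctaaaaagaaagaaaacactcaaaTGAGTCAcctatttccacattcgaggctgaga
MMP20: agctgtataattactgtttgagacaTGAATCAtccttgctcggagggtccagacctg

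Genes that act on or with the members were read from lists. All 11 AP-1 and ETS factors reached 1 CPM in each library, with FOSL1 at 319 ± 11.1, ETS1 at 178, 169 and 184, and FOSB lowest at 0.736 ± 0.0303 TPM. Of 8 genes that activate or induce metalloproteinases 7 did, led by BSG, an inducer of MMPs also called EMMPRIN, at 715 ± 32.2 TPM and the urokinase gene PLAU at 545 ± 16.7 TPM, while PLG, the plasminogen gene, had 4, 0 and 4 counts. Of 4 other inhibitors and clearance genes 3 did, with TFPI2 at 21.3 ± 0.843 TPM, the endocytic receptor LRP1 at 20.9, 19.3 and 18.6 TPM, and A2M lowest at 0.105 ± 0.0444 TPM.

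Of 9 partners of the sheddases ADAM10 and ADAM17, 8 reached 1 CPM in each library, led by TSPAN15 (63.3 ± 1.76 TPM), a tetraspanin that escorts ADAM10, and TSPAN17 (36.1 ± 1.80 TPM), while TSPAN10 (0.615 ± 0.389 TPM) did not. Of 14 shed substrates 10 did, with APP at 504 ± 7.14 and the EGF receptor ligand AREG at 179 ± 13.8 TPM, and IL6R lowest at 0.0962 ± 0.0769 TPM. Of 17 matrix substrates 6 did, led by fibronectin FN1 at 199 ± 5.01 and the basement membrane collagen COL4A2 at 142 ± 4.97 TPM, while COL2A1 had no count. Of 6 ADAMTS-like genes, which resemble ADAMTS proteins without the protease domain, 4 did, with ADAMTSL1 at 9.92 ± 0.160, ADAMTSL5 at 6.44 ± 0.640 and ADAMTSL2 lowest at 0.0551 ± 0.0490 TPM.

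The cultures differed little in these genes. Of 36 members with enough counts to test, 19 varied between libraries beyond counting noise (edgeR deviance against a chi-square, Benjamini-Hochberg adjusted p under 0.05 over all genes), beside 53.0% of all 14432 genes tested. The other 30 members were not tested, 19 of which had a count. In the lists above, the test called 8 of 11 tested AP-1 and ETS factors, 6 of 7 activating genes, 1 of 4 other inhibitors, 5 of 8 sheddase partners, 7 of 12 shed substrates, 5 of 9 matrix substrates and 2 of 5 ADAMTS-like genes. The share among the members was near that of all genes and is no property of the set. The highest library exceeded the lowest by under 1.2-fold in 13 of the 19, and the median over the 31 detected members was 1.11-fold, against 1.10-fold over all detected genes.

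The 19 were TIMP1, TIMP2, TIMP3, MMP1, MMP14, MMP16, MMP25, ADAM8, ADAM9, ADAM10, ADAM15, ADAM19, ADAM23, ADAM32, ADAMTS1, ADAMTS3, ADAMTS9, ADAMTS12 and ADAMTS15. Genes with exactly 2 counts (712, 637 and 580) outnumbered those with 1 (485, 401 and 379) in replicates 1, 2 and 3, and whether both mates of a pair were counted is not stated. With the deviance divided by 2, which allows for paired mates, 13 members varied beside 28.5% of all genes. With a trend on GC content removed instead, 18 members varied beside 39.4% of all genes. With both changes, 7 did (TIMP1, TIMP2, TIMP3, MMP14, ADAM19, ADAMTS1 and ADAMTS12) beside 14.4% of all genes. When the edgeR fit allowed cultures to vary by a coefficient of 0.05, 0 members passed, beside 1.12% of all genes, and 6 had an unadjusted p under 0.05. The share of all genes under that unadjusted threshold was not computed, so the 6 cannot be read as an excess. Leaving out replicate 1 gave 16 members beside 37.8% of all genes, leaving out replicate 2 gave 10 beside 39.2%, and leaving out replicate 3 gave 14 beside 24.2%.

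Among these 7, TIMP3 was at 2546, 2371 and 2536 CPM in replicates 1, 2 and 3, so that replicate 2 was low (edgeR deviance, adjusted p = 1.23e-127). MMP14 was at 670.1, 697 and 642 CPM, highest in replicate 2 and lowest in replicate 3 (edgeR adjusted p = 1.28e-32). ADAMTS1 was at 92.6, 83.7 and 89.0 CPM, again lowest in replicate 2 (edgeR adjusted p = 1.55e-07). Such differences, 1.07-fold, 1.09-fold and 1.11-fold from lowest to highest, pass the test at these counts though they are small. Without replicate 2 the adjusted p for TIMP3 was 0.149 and for ADAMTS1 0.0640, so both calls rest on that library, while MMP14 was still called at 1.36e-09.

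Among the detected members, MMP1 had the widest range. It was at 3.32, 2.48 and 3.76 CPM, lowest in replicate 2, a 1.52-fold span (edgeR adjusted p = 0.000217, 0.0295 with the deviance divided by 2 and 0.0766 with the GC trend removed as well). Without replicate 2 its adjusted p was 0.325. MMP16, at a GC content of 36.4%, was at 11.2, 10.8 and 14.0 CPM, highest in replicate 3 (edgeR adjusted p = 2.27e-06, 0.134 with both corrections). ADAM9 (39.4% GC) was also highest in replicate 3 and ADAM15 (62.7% GC) lowest there, and both calls ended once the GC trend was removed (edgeR adjusted p = 0.707 and 0.323). MMP25 and ADAM32 had wider spans, 2.68-fold and 2.62-fold, on 18 to 39 and 13 to 22 counts per library.

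**Figure D5:**
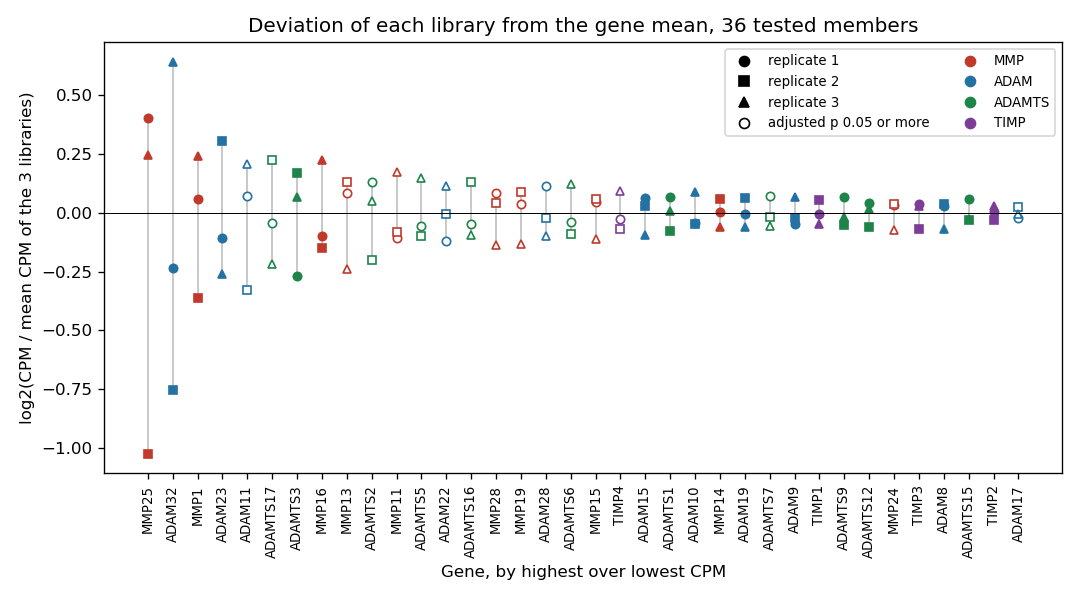
log2 of CPM over the mean CPM of the 3 control siRNA libraries for the 36 tested members, ordered by the ratio of highest to lowest CPM; open symbols mark an adjusted p of 0.05 or more. MMP25 and ADAM32 spread widest on few counts, and ADAM17 at the far right spans 1.03-fold.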

How the data were processed

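RNA from 3 control siRNA libraries of MDA-MB-231 was read as pairs of 100 bp with TruSeq RNA kits, per the labels' protocols. The authors deposited raw counts per RefSeq record, not normalized; the submitters' processing notes name FastQC, TopHat2, Cufflinks and hg19. Versions, counting tool, strand setting and treatment of multiply mapped reads are not given in the sources used here. Accessions gave a gene for 6318 of the 6937 records that carried no name; the 619 others (0.952%, 0.959% and 0.944% of record totals) were left out. A gene's count was its record with the largest total, after summing copies of a record identifier. The 8 nameless records that match accessions of this gene set added no member. Where the accession was that of a member, they were pooled with its records and entered the summed records. This held for ADAM9 and ADAMTS13, with 4 records each after pooling.

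TPM used GENCODE 29 transcript lengths, taken from the counted record for 64 of 66 members. Such a transcript can be longer than the hg19 record, which moves TPM but not CPM. CPM used TMM library sizes (edgeR 4.0.16, R 4.3.3). Genes passing filterByExpr were fitted with an intercept and dispersion 0, and the deviance was set against a chi-square and adjusted by Benjamini-Hochberg over all genes. The test was tried on simulated data. Alternatives used DESeq2 1.42.0 size factors, no filter, summed records, a deviance divided by 2, a lowess trend on GC content, a coefficient of variation of 0.05 and each library left out. Division of the deviance with the GC trend, and sums without TIMP3 or MMP14, were chosen after seeing the data.

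Members are named where they reached 1 CPM in each library, were highest or lowest in their role list, or were called; the other members are given by counts. Genes of other lists are the 2 highest and the lowest. The members and lists were chosen with earlier results of these data known. Promoter sequences are from RefSeq (GRCh38.p14), whose build differs from hg19, so no coordinates were carried between builds. Figures were drawn with matplotlib 3.10.9 in Python 3.11.15.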

Additional observations from a re-analysis of the deposited data

How the results depend on the processing

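The number of members at 1 CPM or more in each library was 31 and ranged from 26 (1 TPM as the threshold) to 31 over the alternatives. The number of members that varied between libraries was 19. It was 0, beside 1.12% of all genes, with a coefficient of variation of 0.05 allowed. With the deviance divided by 2 and the GC trend removed it was 7, beside 14.4% of all genes. Both settings allow for more spread by construction. The number ranged from 10 to 16 when 1 library was left out. Without replicate 2, 9 of the 19 were still called and ADAM22 was added, beside 39.2% of all genes; the 10 no longer called were TIMP2, TIMP3, MMP1, MMP25, ADAM23, ADAM32, ADAMTS1, ADAMTS3, ADAMTS9 and ADAMTS12. The cause was not tested. With DESeq2 size factors the same 19 were called, and without a filter 26 were. The share over all genes was not computed for either fit, so the 26 cannot be set against it. The TIMP to MMP ratio of 4.95 was 4.46 in CPM, 2.16 without TIMP3 and 65.9 without MMP14, and 4.84 to 5.08 with 1 library left out. The longest transcript of each gene moved 28 of 31 member levels by more than their SD, and ADAM15 (206 TPM) then lay under ADAM8 (272 TPM). Members whose own transcript stayed the same moved too, through the changed TPM total. TIMP3 went from 1294 to 1609 TPM and MMP14 from 429.9 to 535 TPM in this way. Summing records moved 29 of 31 member levels by more than their SD, since single-record genes all fell to 0.519 of their TPM by the larger total. ADAM15 (6 records) was then at 781 TPM, above ADAM9 (574 TPM, 4 records with the nameless ones). Both then stood above TIMP1 (353 TPM), and ADAM15 also stood above TIMP3 (671 TPM). The lead of the TIMP genes over the ADAM genes is therefore stated for 1 record per gene alone. No paired analysis was possible because the libraries form 1 group. Depth limits statements on members under 100 counts.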

Other observations

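Records of the same member did not always hold the same counts. For ADAM12, whose long form is membrane-anchored and whose short form is secreted, the record of the long form had 18, 32 and 7 counts in replicates 1, 2 and 3 and that of the short form 0, 17 and 3. For ADAM28 the longer record (7052 bases) had 91, 103 and 63 counts and the shorter one (2085 bases) 56, 55 and 19. The 5 records of ADAM22 fell into 3 with 428 to 609 counts per library and 2 with 277 to 389. The 6 records of ADAM15 and the 3 of ADAM8 were close, with lowest-to-highest ratios of 0.964 and 0.899. Records of a gene share exons, so these values do not give the share of each isoform.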
